A study of Homo sapiens with 5 samples.

Results

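The control libraries of 2 liver cancer lines were compared: the library titled as untreated SNU-398 cells, which hold much SALL4 transcript, and the library titled as SNU-387 cells with an empty vector, which hold almost none. They are 2 of the 5 libraries of the series, taken by their titles, and the comparison covers every gene at 1 FPKM (fragment counts scaled to transcript length and library depth) or more in either of them, which left 13996 of 24544 gene symbols. The other 3 libraries are SNU-387 cells that overexpress the isoform SALL4A or SALL4B and SNU-398 cells with a SALL4 knockdown aimed at both isoforms, and they serve here as the only further measurements of each line. Both lines are established human hepatocellular carcinoma lines grown in RPMI medium with 10% serum. Per the labels, the empty vector cells were transduced with lentivirus and selected with puromycin. The same treatment field is given for the untreated SNU-398 cells, although their source label calls them untreated. The cell line field names SNU-387 also for the libraries titled SNU-398, so the titles alone assign the line. Each group is 1 library of 1 line, with no replicate error for any value, and line identity, vector treatment and SALL4 level cannot be told apart. Below, 5 values stand in the order empty vector, SALL4A and SALL4B (SNU-387) against untreated and knockdown (SNU-398), and a pair of values is empty vector against untreated. A value of 0 means that the gene is listed at 0 there, and a list member counts as measured where it passed the filter of 1 FPKM. Positions are on GRCh38.

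SALL4 is a zinc finger transcription factor of the early embryo and the fetal liver that is silenced in adult hepatocytes and found again in a share of liver cancers. It binds the NuRD corepressor, a complex of histone deacetylases and chromatin remodellers. Liver cancer lines range from cells that keep hepatocyte enzymes and epithelial keratins to cells that have taken on mesenchymal, progenitor or other embryonic programmes, and the groups of genes below follow those programmes.

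In the control libraries, 3313 genes were at least 2-fold higher in SNU-398 (23.7% of those compared) and 2990 were at least 2-fold lower (21.4%), counted on log2((FPKM + 1)/(FPKM + 1)), a scale that understates the difference of low genes. The far ends were uneven: past 8-fold there were 414 higher genes (2.96%) and 667 lower genes (4.77%). Counts of list members below are to be read beside these shares of all genes, 23.7% higher and 21.4% lower. Of 52 gene lists, 8 had a median past 2-fold on the higher side and 22 on the lower side. By their medians, the lists of HOX genes, of Notch genes and of SALL and stem cell genes were among those on the higher side. Lists of keratins, S100 proteins, collagens and other matrix genes, interferon, antigen presentation, cytokine and hypoxia genes were among those on the lower side. A gene that reached 1 FPKM in only one of these libraries is bound to lie on the side of that library, so counts and medians of lists with many such members are descriptions. The median log2 ratio of all genes was 0.07 and the standard deviation across genes 1.68. Centred on that median, the counts were 3069 higher and 3196 lower. Higher genes were 52.6% of those past 2-fold as deposited. After scaling to a common total they were 68.7%, or 65.6% when small RNAs were kept out of the total, since these scalings moved the median gene to 0.48 and 0.39.

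**Figure D1:**
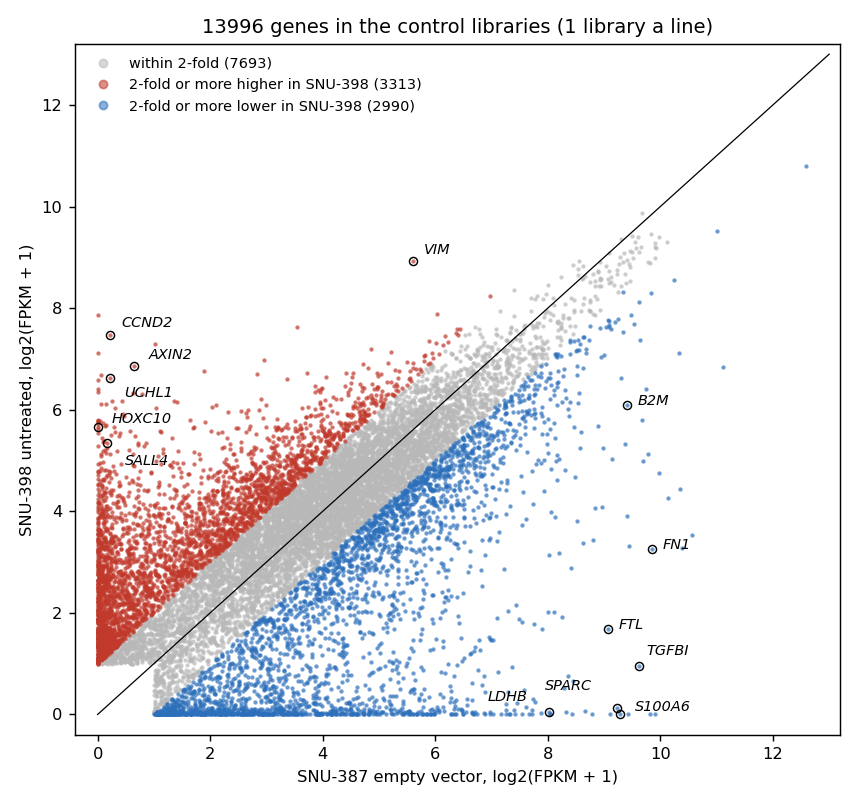
Level of 13996 genes in the SNU-387 empty vector library (horizontal) and the untreated SNU-398 library (vertical), each as log2(FPKM + 1), 1 point per gene, with the line of equal level. The 3313 red genes are at least 2-fold higher and the 2990 blue genes at least 2-fold lower in SNU-398; a row of blue genes along the bottom edge reaches high SNU-387 levels.

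The libraries differed in depth and in small RNA. At the depth estimated from the spacing of low values, 1 FPKM on a transcript of 2 kb stood for about 23.7 fragments with empty vector and 42.6 in untreated SNU-398, and for 14.3 to 47.1 over the 5 libraries. Small RNA symbols (mostly small nucleolar RNAs) held 8.03% of summed FPKM with empty vector and 1.43% in untreated SNU-398, and 38.5% in the knockdown library. Of 154 small RNA rows past the filter, 121 were at least 2-fold lower in SNU-398, with a median log2 ratio of -3.49, and 89 of the 667 genes past 8-fold on that side were such rows. The part of library preparation in these rows was not tested, and they are left out of the named genes. Without them, 3292 genes were higher and 2869 lower. Correlations of log2(FPKM + 1) across symbols were 0.932 to 0.977 within a titled line and 0.829 to 0.857 between lines.

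The difference between the control libraries was largely shared by the other libraries of the lines. Both SNU-398 libraries lay above all 3 SNU-387 libraries for 4932 genes (35.2% of those compared) and below them for 4629 (33.1%). Among the genes called in the control pair, 3013 of the 3313 higher genes (90.9%) and 2637 of the 2990 lower genes (88.2%) were separated in that way. The control libraries enter both counts, so these shares are a description. The pair of knockdown SNU-398 and SALL4A SNU-387 shares no library with the control pair, and in it the order of SALL4 itself is turned round. There, 3760 of 14448 genes were at least 2-fold higher in SNU-398 (26%) and 3073 lower (21.3%). Of the genes higher in the control pair, 2173 were higher again, which is 65.6% of that list and 57.8% of the higher list of the second pair. Of the lower genes, 2028 were lower again, 67.8% and 66.0% of the same lists.

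A small number of genes took the opposite side in the second pair: 16 of the higher genes were then at least 2-fold lower and 79 of the lower genes higher. Of those 79, 67 were small RNA rows, and the knockdown library is the one with 38.5% small RNA. The 16 include SALL4 itself. The 6 other genes described here were picked after their values were seen. ANKRD1, a stress-response protein of muscle and a target of the coactivator YAP, was at 0.935, 43.4 and 20.4 against 26 and 2.69 FPKM. FOXM1, a transcription factor of dividing cells, was at 22.7, 35.5 and 25.9 against 66.6 and 16.4 FPKM. HADH, an enzyme of fatty acid oxidation, was at 10.5, 15.4 and 8.88 against 25.5 and 6.98 FPKM. ANP32B, a histone chaperone, was at 36.2, 68 and 81.2 against 139.7 and 28.5 FPKM. QDPR, which regenerates tetrahydrobiopterin, was at 7.01, 21.3 and 10.7 against 20.1 and 4.81 FPKM. The choice uses 4 of the 5 values and largely fixes their order, so these values are a description. The pattern of SALL4A above empty vector did not hold for PTPN18, a tyrosine phosphatase among the 16, at 4.14, 3.86 and 3.41 against 9.33 and 1.13 FPKM.

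SALL4 (chromosome 20, 51782331 to 51802520) had the largest control ratio in its family. SALL4 was at 0.117, 23.1 and 10.4 against 39.4 and 7.45 FPKM, a log2 ratio of 5.18 in the control pair. The SALL4 values of the 2 lines therefore overlap once the transduced libraries are included. Its paralogs did not overlap: SALL2 was at 0.103, 0.0476 and 0.0633 against 13.1 and 4.73 FPKM (log2 ratio 3.67). SALL1 was at 0.125, 0 and 0 against 7.36 and 5.94 FPKM (2.89). SALL3 was under 1 FPKM in both control libraries. SALL2 and SALL1 thus stayed near 0 in the SNU-387 libraries that carried a SALL4 vector, at no more than 0.0633 FPKM for SALL2 and at 0 for SALL1.

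**Figure D2:**
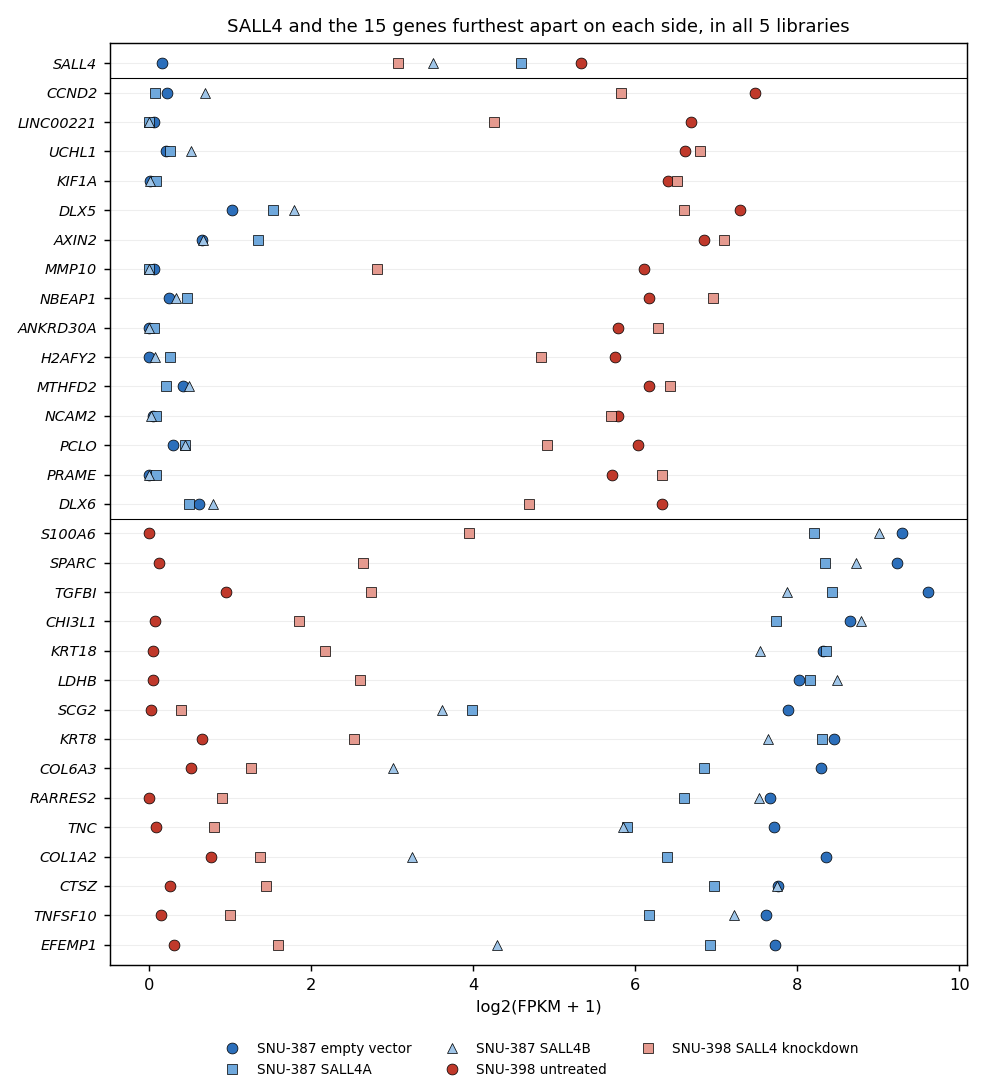
SALL4 and the 15 genes with the highest and the 15 with the lowest log2 ratio among genes at 5 FPKM or more, as log2(FPKM + 1), 1 point for each of the 5 libraries (blue shades SNU-387, red shades SNU-398). SALL4 values of the lines overlap, whereas for the genes below it both SNU-398 points lie on one side of all 3 SNU-387 points, with SCG2, COL6A3, COL1A2 and EFEMP1 spread widely within SNU-387.

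The list of SALL and stem cell genes includes SALL4 itself, whose level sets the 2 lines apart by choice. Of its 11 measured genes, 7 were at least 2-fold higher, SALL4 among them, and 2 lower, with a median log2 ratio of 2.41. In SNU-398 10 of its genes reached 1 FPKM and with empty vector 3. Most thus entered only through SNU-398 and were bound to lie on the higher side, so count and median are a description. LIN28B, an RNA-binding protein that blocks let-7 maturation, was at 0.262, 0.0888 and 0 against 17.3 and 37.5 FPKM. ZIC2, a neural tube transcription factor, was at 0.0275 against 11.4 FPKM. TERT, the catalytic subunit of telomerase, was at 0.121 against 4.96 FPKM. KLF4, one of the reprogramming factors, went the other way at 3.16 against 0.0468 FPKM. POU5F1 and NANOG, the central factors of pluripotent cells, did not pass the filter. With the filter taken off, the median over all 25 members was 0.24, and with genes at 1 FPKM or more in both libraries it was 0.02.

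Genes of NuRD and of the polycomb complexes were mostly within 2-fold or higher. Of 40, 17 were at least 2-fold higher and 1 lower, with a median of 0.66. CHD5, a remodeller of neural tissue that can stand in for CHD4 in NuRD, was at 0.0410, 0.0834 and 0.0993 against 15.6 and 22.4 FPKM. PCGF2, a polycomb ring finger protein, was at 3.42 against 24.3 FPKM. The de novo DNA methyltransferase DNMT3A was at 7.48 against 33.2 FPKM. The core NuRD subunits were closer. The remodeller CHD4 was at 109 against 90.2 FPKM. The deacetylase HDAC1 was at 104 against 76.7 FPKM. RBBP7, the histone-binding subunit, was the lower one at 120.0 against 49.5 FPKM.

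HOX genes, which give cells their position along the body axis, gave the most one-sided list. All 29 measured members were at least 2-fold higher in SNU-398, with a median log2 ratio of 2.63, where 23.7% of all genes were higher. All 29 were at 1 FPKM or more in SNU-398, but 25 of them entered the comparison only through that library, since just 4 members (HOXB3, HOXB7, HOXD10 and HOXD11) reached 1 FPKM with empty vector. A member that enters in this way is bound to lie on the higher side, so the count is a description of which HOX genes SNU-398 transcribes.

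HOXC10 and HOXC9, of the cluster on chromosome 12, had the highest levels among HOX genes with a row of their own. HOXC10 was at 0, 0.0263 and 0.0701 against 49.8 and 44.3 FPKM. HOXC9 was at 0, 0.0283 and 0 against 48.1 and 33 FPKM. HOXC8 was at 0.0363, 0.0185 and 0 against 22.4 and 18.1 FPKM. These genes were near 0 in every SNU-387 library and stayed high in the knockdown library. The row that joins HOXC4, HOXC5 and HOXC6 was at 0.102 against 50.6 FPKM. The row that joins HOXA9 and HOXA10 was not higher in SNU-398, at 0.238 against 0 FPKM, and did not pass the filter. HOXD13, a gene of digit and genital patterning, was the highest of the HOXD cluster in untreated SNU-398, at 0.0713, 0.0725 and 0 against 39.9 and 15.2 FPKM. HOXD8 was at 0.213 against 28.9 FPKM. HOXD1, HOXD3 and HOXD4 at the other end of the cluster were under 1 FPKM in both. HOXB7 was the highest HOXB gene in untreated SNU-398, at 1.53, 2.10 and 0.173 against 25.1 and 20.4 FPKM. Among HOXA genes with a row of their own, HOXA7 was the highest, at 0 against 8.28 FPKM. HOXD10 was the HOX gene with the highest SNU-387 level, at 3.84, 3.81 and 0.952 against 31.5 and 24.7 FPKM. For all 29, both SNU-398 libraries lay above all 3 SNU-387 libraries.

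**Figure D3:**
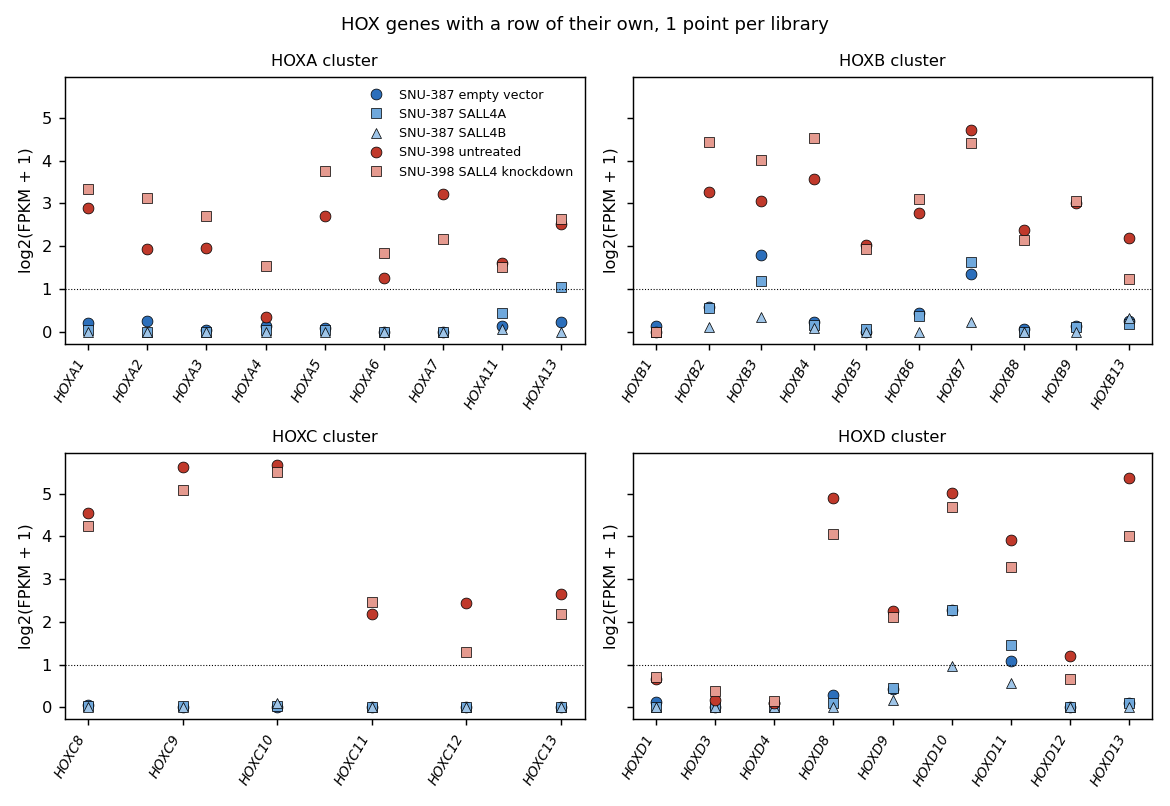
HOX genes with a row of their own, by cluster and in numerical order, as log2(FPKM + 1), 1 point per library and a dotted line at 1 FPKM. HOXC10 and HOXC9 have the highest levels in both SNU-398 libraries, HOXD1, HOXD3 and HOXD4 are low in all 5, and SNU-387 reaches 1 FPKM at HOXB3, HOXB7, HOXD10 and HOXD11, and at HOXA13 with SALL4A.

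Of the 15 genes with the highest ratios, several belong to neurons. UCHL1, a deubiquitinase abundant in neurons (chromosome 4, 41256413 to 41268455), was at 0.158, 0.201 and 0.431 against 97 and 110.1 FPKM (log2 ratio 6.40). KIF1A, the motor that carries synaptic vesicle precursors along axons, was at 0.00908, 0.0601 and 0.0122 against 84 and 90.3 FPKM. PCLO, a scaffold of the presynaptic zone, was at 0.231 against 64.6 FPKM. The neural adhesion molecule NCAM2 was at 0.0321 against 54.2 FPKM. The lines were wide apart at each of these genes, with no overlap among the 5 libraries. The homeobox gene DLX5, of forebrain, jaw and limb, was at 1.03 against 156 FPKM. Its neighbour DLX6 was at 0.539 against 79.3 FPKM.

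The neural and neuroendocrine list as a whole was divided. Of 21 measured genes, 12 were at least 2-fold higher and 7 lower in SNU-398 (33.3%, beside 21.4% of all genes). Their median of 1.73 became 0.48 with a minimum of 5 FPKM, and their summed level was 479 against 345 FPKM. CHGB, a granin of secretory granules, was at 0.124 against 16.3 FPKM. STMN3, a microtubule destabiliser of neurons, was at 0.631 against 22.4 FPKM. The neuroendocrine marker CHGA was at 0.0410, 0.0625 and 0 against 3.32 and 1.77 FPKM. The synaptic vesicle marker SYP was at 0.306, 0.294 and 0.965 against 4.89 and 3.74 FPKM. Both markers were low, and higher in both SNU-398 libraries than in any SNU-387 library. The granin SCG2 was the lowest of the list at 236, 14.9 and 11.3 against 0.0179 and 0.320 FPKM. BEX1, a small neuronal adaptor, followed at 75.9, 4.98 and 8.26 against 0.181 and 0 FPKM. Both were far lower in the SALL4A and SALL4B libraries than with empty vector, so their control ratios (-7.86 and -6.03) overstate the difference to the other SNU-387 libraries. L1CAM, a neural adhesion molecule, overlapped between the lines at 39.4, 7.97 and 0.454 against 0.547 and 1.16 FPKM.

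The remaining genes of those 15 had varied roles. CCND2 (cyclin D2, chromosome 12, 4273772 to 4305350), which drives entry into the cell cycle, had the highest ratio of all (7.25) and was at 0.171, 0.0498 and 0.609 against 178 and 55.6 FPKM. MTHFD2, the mitochondrial folate enzyme of embryonic and tumour cells, was at 0.343, 0.155 and 0.412 against 71 and 85.6 FPKM. MMP10, a stromelysin, was at 0.0482, 0 and 0 against 67.9 and 6.02 FPKM. CCND2 and MMP10 were lower in the knockdown library than in the untreated one, but still above every SNU-387 library. H2AFY2, a macroH2A histone variant, was at 0 against 52.8 FPKM. ANKRD30A, a differentiation antigen of breast, was at 0 against 54.5 FPKM. The tumour antigen PRAME was at 0 against 51.6 FPKM. The long noncoding RNA LINC00221 was at 0.0483 against 102 FPKM. The pseudogene NBEAP1 was at 0.190 against 70.8 FPKM. NBEAP1 can share reads with its parent gene.

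Cancer-testis and imprinted genes differed gene by gene. Of 8 measured cancer-testis genes, 4 were at least 2-fold higher and 3 lower, with a median of 1.08 that took the other sign (-0.14) with no filter. Besides PRAME, the helicase DDX43 was at 0.153 against 22.7 FPKM. TEX15, a gene of meiosis, was at 4.58 against 28.6 FPKM. The X-linked MAGEC2 was on the other side at 2.57 against 0 FPKM. PAGE5, also X-linked, was at 14.5 against 0 FPKM. Among 19 imprinted genes, 4 were higher (21.1%, beside 23.7% of all genes) and 3 lower (15.8%, beside 21.4%), with a median of -0.09. As a list they thus did not stand out from all genes. NDN (necdin), a growth suppressor of neurons, was at 0.0444, 0 and 0 against 27.7 and 14.1 FPKM. MKRN3, a neighbour in the same imprinted region, was at 0.667, 1.08 and 1.56 against 17.1 and 29.1 FPKM. The joint row of PEG3 and ZIM2 was at 0.119 against 36.9 FPKM. The joint row of H19 and MIR675 stood the other way, at 43.7 against 0.945 FPKM, but was at 4.02 and 1.70 FPKM in the SALL4A and SALL4B libraries. PLAGL1, an imprinted zinc finger gene, was at 8.18 against 0.0961 FPKM.

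The liver label was checked against defining markers. ALB (albumin) was at 0.0370, 0 and 0 against 1.28 and 0.370 FPKM. HNF4A, the master regulator of hepatocytes, was at 0.0773, 0.0541 and 0.287 against 0.0199 and 0.0296 FPKM. APOA1 was at 0.308, 0.731 and 14.9 against 0.288 and 0.172 FPKM. These defining hepatocyte markers were thus at 1.28 FPKM or less in both control libraries, so the hepatocyte part of the label is not borne out by them. Of 48 hepatocyte secreted and enzyme genes, 14 passed the filter, 1 of them at least 2-fold higher and 10 lower in SNU-398. With empty vector 12 reached 1 FPKM and in untreated SNU-398 4, so most entered only through SNU-387 and were bound to lie on the lower side. The median of -2.11 became -0.16 with no filter. The summed level of the 48 genes was 89.3 to 197 FPKM in SNU-387 and 12.5 to 15.1 FPKM in SNU-398. Complement C3 was at 70.1, 21.7 and 44.7 against 0.0440 and 0.209 FPKM. The urea cycle enzyme ASS1 was at 29.4, 32 and 65.4 against 5.09 and 4.34 FPKM. SERPINA1, the main serum protease inhibitor, was at 5.78, 4.66 and 25.3 against 0.0142 and 0.0424 FPKM.

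Hepatic transcription factors differed gene by gene. Of 11 measured, 6 were at least 2-fold higher and 3 lower, but 6 reached 1 FPKM with empty vector and 10 in SNU-398. Their summed level was 65.6 against 65.4 FPKM. The median of 1.15 became 0.52 with genes at that level in both libraries and 0.20 with no filter. FOXA1, a pioneer factor of endoderm, was at 0, 0.0122 and 0.0325 against 6.53 and 8.49 FPKM. GATA4, of the early liver bud, was at 0.716 against 6.93 FPKM. CEBPA, of mature hepatocytes, was at 0.0313 against 3.26 FPKM. GATA6, the relative of GATA4, lay on the lower side at 3.54 against 0.120 FPKM. Fetal and progenitor genes gave 9 higher and 3 lower of 16. GPC3, an oncofetal proteoglycan of liver cancer, was at 0.0774, 0.217 and 0 against 10.2 and 8.41 FPKM. EPCAM, a surface protein of hepatic progenitors, was at 2.47, 1.81 and 7.16 against 33.7 and 14.7 FPKM. The oncofetal RNA-binding protein IGF2BP1 was at 6.92, 11.2 and 12.8 against 67.2 and 34 FPKM. AFP was under 1 FPKM in both control libraries. The progenitor surface gene CD24 was at 214, 205 and 437 against 2.46 and 2.44 FPKM. SOX9, a factor of bile ducts and progenitors, was at 13.3, 15.2 and 11.5 against 0.0575 and 0.205 FPKM. These 2 progenitor genes lay on the lower side in both SNU-398 libraries.

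Markers of other cell types were read as lists. Of 11 cholangiocyte genes, 9 were lower in SNU-398, where the biliary keratins KRT7 and KRT19 were listed at 0. All 11 reached 1 FPKM with empty vector and 5 in untreated SNU-398, so the rest were bound to lie on the lower side. The median of -1.71 became -1.07 with genes at 1 FPKM or more in both libraries. KRT7 was at 47.6, 2.13 and 0.811 against 0 and 0 FPKM, so its level also varied within SNU-387. Of 21 fibroblast and stellate cell genes, 4 were higher and 13 lower, with sums of 791 to 1369 FPKM in SNU-387 and 795 to 950 FPKM in SNU-398. Of their defining markers, COL1A1 was at 54.9, 18.6 and 4.92 against 0.407 and 1.10 FPKM. PDGFRB was at 2.75, 4.68 and 0.245 against 0.00782 and 0.0931 FPKM. Decorin (DCN) overlapped between the lines at 30.4, 2.73 and 32.5 against 17.5 and 4.09 FPKM. Endothelial PECAM1 was at 1.61 against 0.0404 FPKM. Endothelial cadherin (CDH5) was at 0.333 against 0.0109 FPKM. Of 20 endothelial genes 4 passed the filter, 3 of them at least 2-fold higher (ESAM, EGFL7 and SOX18, at 1.21 to 5.03 FPKM) and 1 lower. With empty vector 1 of these 4 reached 1 FPKM and in untreated SNU-398 3, so the side of each was fixed by the filter. The endothelial median of 1.66 became -0.14 with no filter. PTPRC, the pan-leukocyte marker, was at 1.19 against 0.223 FPKM, and 6 of 22 leukocyte genes passed, 1 higher and 4 lower. With empty vector 5 of these 6 reached 1 FPKM and in untreated SNU-398 2, so most were bound to lie on the lower side. Summed levels of the leukocyte genes were 33.8 to 51.8 FPKM in SNU-387 and 11.2 to 15.8 FPKM in SNU-398. CD68, a lysosomal protein, was the highest of them with empty vector, at 34, 15.5 and 41.7 against 4.90 and 8.65 FPKM. The part of other cells in the comparison was not tested. In these bulk libraries, fewer cells with a transcript and less transcript per cell cannot be told apart.

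The 15 genes with the lowest ratios included a pair of simple epithelial keratins and S100A6, all at 0.579 FPKM or less in untreated SNU-398. S100A6 (calcyclin, chromosome 1, 153534599 to 153536244), a small calcium-binding protein, was at 625, 296 and 513 against 0 and 14.4 FPKM. KRT18, a keratin of simple epithelia, was at 318, 328 and 185 against 0.0340 and 3.53 FPKM. Its partner KRT8 was at 349.9, 316 and 199 against 0.579 and 4.78 FPKM. All of these were abundant with empty vector, and the knockdown values lay between the untreated value and those of SNU-387. Of 9 keratins, 8 were at least 2-fold lower and none higher, with a median of -3.86 (-1.46 for the 1 keratin at 1 FPKM or more in both libraries). Of 11 measured genes of the S100 list, 9 were lower and none higher, with a median of -4.63. S100A11, which binds annexins, was at 56.4, 92 and 85.1 against 0 and 0.862 FPKM. S100A10, the annexin A2 partner, was at 194, 184 and 205 against 13.5 and 6.25 FPKM. S100PBP, which binds an S100 protein and is not one itself, was within 2-fold at 12.4 against 17.2 FPKM.

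For SNU-387 transcripts picked for a value near 0 in untreated SNU-398, the knockdown library had higher, though still low, values. There were 17 genes, small RNAs and joint rows left out, at 100 FPKM or more with empty vector and under 0.1 FPKM in untreated SNU-398. In the untreated library they were at a median of 0.0128% of the empty vector level (at most 0.0449%). In the knockdown library they were at a median of 0.442%, from 0.0886% to 2.31%. The choice of these genes holds their untreated value under 0.1 FPKM and sets no bound on their knockdown value, so this contrast is a description. In the reverse direction, 17 genes at 30 FPKM or more in untreated SNU-398 and under 0.1 FPKM with empty vector were at medians of 0.0709% (empty vector), 0.108% (SALL4A) and 0% (SALL4B) of the untreated level. The empty vector value of this second set was likewise bounded by the choice. Whether the low knockdown values of the first set come from the knockdown cells themselves or from reads of another library was not tested.

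Matrix glycoproteins had the most lower members of the 52 lists. Of 60 matrix glycoproteins and proteoglycans, 8 were at least 2-fold higher and 44 lower, with a median of -2.39. Of 30 collagens, 1 was higher and 24 lower, with a median of -2.41. With empty vector 29 collagens reached 1 FPKM and in untreated SNU-398 13, so many entered only through SNU-387 and were bound to lie on the lower side. The collagen median became -1.67 with no filter and -2.93 with genes at 1 FPKM or more in both libraries. SPARC (osteonectin), which binds collagen, was at 599, 323 and 422 against 0.0885 and 5.23 FPKM. TGFBI, an adhesion protein induced by TGF-beta, was at 785, 344 and 234 against 0.933 and 5.70 FPKM. FN1 (fibronectin) was the highest of the list with empty vector, at 918, 247 and 234 against 8.56 and 5.55 FPKM. SNU-398 had little of each. TNC (tenascin C), a matrix protein of wounds, was at 209 against 0.0619 FPKM. EFEMP1, a fibulin, was at 212 against 0.240 FPKM. Periostin (POSTN), another matrix protein of wounds, was at 173 against 0.170 FPKM. Secreted proteins outside these lists were also among the 15 lowest ratios. CHI3L1, a chitinase-like glycoprotein, was at 402, 213 and 441 against 0.0514 and 2.60 FPKM. RARRES2 (chemerin), a chemoattractant made in liver and fat, was at 202, 96 and 184 against 0 and 0.867 FPKM. CTSZ, a lysosomal protease, was at 217, 124 and 214 against 0.192 and 1.72 FPKM.

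Collagens varied within SNU-387 as well. COL1A2, a chain of fibrillar collagen I, was at 326, 83.2 and 8.50 against 0.695 and 1.58 FPKM. COL6A3, a chain of the beaded filaments of collagen VI, was at 313, 115 and 7.07 against 0.438 and 1.39 FPKM. COL8A1, a short-chain collagen, was at 101, 19.4 and 4.61 against 0 and 0.0898 FPKM. Their ratio to the empty vector library is thus larger than to the SALL4B library, and 19 of the 24 lower collagens were separated in all 5 libraries. COL3A1 overlapped at 141, 17.2 and 8.80 against 127 and 131 FPKM. COL11A1 overlapped at 64.6, 108 and 114 against 82.5 and 267 FPKM. COL21A1 was the higher one at 20.1, 3.45 and 18.4 against 52.5 and 84.2 FPKM. Some basement membrane genes were also higher in SNU-398. The laminin chain LAMA2 was at 0.540, 0.612 and 0.671 against 29.1 and 45.7 FPKM. The embryonic laminin chain LAMA1 was at 0.0492 against 8.92 FPKM.

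The receptors and the machinery that hold cells to that matrix were lower too. Of 16 integrins, 1 was higher and 10 lower, with ITGA3, a laminin receptor subunit, at 164, 106 and 94.6 against 0.910 and 2.84 FPKM. The common beta chain ITGB1 was at 511, 319 and 339 against 134 and 175 FPKM. ITGAV overlapped at 102, 115 and 91.1 against 98.1 and 141 FPKM. On the contractile side, none of 28 smooth muscle and actin genes was higher and 20 were lower. MYL9, a myosin light chain, was at 93.9, 126 and 175 against 0.243 and 1.80 FPKM. LMNA, the lamin of stiff nuclei, was at 379 against 36.8 FPKM. Of 21 caveola and annexin genes, 1 was higher and 15 lower. CAV1, the coat protein of caveolae, was at 129, 128 and 96.3 against 1.75 and 2.86 FPKM. ANXA2, the highest annexin with empty vector, was at 793, 546 and 735 against 164 and 119.9 FPKM. ANXA1 overlapped between the lines at 544, 402 and 675 against 421 and 462 FPKM. Of 34 MMP, plasminogen and inhibitor genes, 6 were higher and 22 lower. MMP2 (gelatinase A) was at 155 against 0.361 FPKM. The urokinase gene PLAU was at 32.3 against 0.396 FPKM.

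Genes of the epithelial-to-mesenchymal transition were split. Of 30, 7 were at least 2-fold higher and 23 lower, with a median of -2.92. The lower ones were mainly secreted matrix and adhesion genes such as CD44, at 88.4, 97.4 and 71.3 against 0.0456 and 1.08 FPKM. The higher ones included the intermediate filament vimentin (VIM), at 47.4, 33.1 and 170.3 against 484 and 615 FPKM. The transcription factor TWIST1 was at 0.0511, 0.208 and 0.0692 against 42.6 and 45 FPKM. ZEB2, a repressor of E-cadherin, was at 11.9, 12.2 and 15 against 52.1 and 72.3 FPKM. TWIST1 and ZEB2, factors that drive the transition, were thus higher in the line with the lower levels of its matrix genes and of keratins. Epithelial adhesion genes were divided, with 8 of 25 higher and 10 lower. The desmoglein DSG2 was at 46.1 against 3.81 FPKM. Claudin 4 (CLDN4), of tight junctions, was at 13.1 against 0.309 FPKM. Occludin (OCLN), also of tight junctions, was on the higher side at 0.566 against 7.46 FPKM.

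Interferon response genes, the antiviral programme that type I and type II interferons switch on through STAT and IRF factors, were mostly lower in SNU-398. Of 46, 34 were at least 2-fold lower and 3 higher, with a median of -2.72 (-1.05 over genes at 1 FPKM or more in both libraries). All 46 were at 1 FPKM or more with empty vector, and 18 in untreated SNU-398. LGALS3BP, a secreted lectin-binding protein, was at 125, 71.1 and 129 against 0.0411 and 0.551 FPKM. The GTPase GBP1 was at 62.4, 74.5 and 74.3 against 0 and 0.446 FPKM. IFITM3, which blocks virus entry, was at 76.3, 62.3 and 45.8 against 0.250 and 2.24 FPKM. The DNA sensor IFI16 was at 129 against 21.1 FPKM. The cytosolic RNA sensor IFIH1 (MDA5) stood against the list at 13.6, 5.50 and 7.39 against 87.5 and 64.4 FPKM. The ISG15 ligase HERC5 was at 1.89 against 8.12 FPKM. USP18, a brake on the receptor, was at 3.29 against 10.7 FPKM.

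STAT and IRF complexes of this pathway read a repeated GAAA motif. The 250 bases before the start of LGALS3BP and GBP1 are shown because they hold that motif in the members with the lowest ratios of the list. On the log2(FPKM + 1) scale, the LGALS3BP ratio was -6.91. The stretches are RefSeq sequences of GRCh38.p14, read 5′ to 3′ on the strand of the gene, with each match to GAAANNGAAA on either strand in capitals.
LGALS3BP: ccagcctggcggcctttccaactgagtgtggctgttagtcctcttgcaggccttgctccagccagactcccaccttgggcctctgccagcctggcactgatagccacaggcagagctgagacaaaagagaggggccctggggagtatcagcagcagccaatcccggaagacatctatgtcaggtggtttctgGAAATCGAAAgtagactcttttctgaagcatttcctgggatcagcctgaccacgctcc
GBP1: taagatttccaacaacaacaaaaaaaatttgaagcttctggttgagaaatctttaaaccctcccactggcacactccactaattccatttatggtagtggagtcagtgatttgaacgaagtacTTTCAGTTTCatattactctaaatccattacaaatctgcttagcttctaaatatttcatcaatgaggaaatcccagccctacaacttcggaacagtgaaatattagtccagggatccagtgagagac
The LGALS3BP stretch is chr17:78979924-78980173 (minus strand) and the GBP1 stretch chr1:89065209-89065458 (minus strand). In the whole 300-base windows, 1195 of 27305 genes of the table (4.38%) held the motif, and 419 of 10660 past the filter (3.93%). A share for the list is not given, because 36 of its 46 measured members (78.3%) had a promoter in the table, too few for such a check. The share of genes past the filter has the same limit, since 76.2% of them had a promoter in the table. The GBP and IFITM genes each have close paralogs with which they could share reads. A match is a description of letters and does not show a site in use.

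Antigen presentation, which interferon also raises, was lower in SNU-398. Of 23 genes, none was at least 2-fold higher and 19 were lower, with a median of -2.03. The immunoproteasome subunit PSMB8 was at 64.2, 44.4 and 40.8 against 0.0604 and 0.933 FPKM. The trimming peptidase ERAP2 was at 60.3, 57.3 and 45.7 against 0.0707 and 0.661 FPKM. B2M, the light chain of class I molecules, was at 676, 367 and 507 against 67 and 157 FPKM. It was thus lower in SNU-398 but abundant in both lines. Of 40 cytokine and chemokine genes, 1 was higher and 30 lower. In SNU-398 13 of the 40 reached 1 FPKM, and the median of -2.38 became -0.36 when 1 FPKM was asked of both libraries. TNFSF10 (TRAIL), a death ligand, was at 195, 71 and 148 against 0.105 and 1.0 FPKM. CSF1, the macrophage growth factor, was at 48.5, 34.5 and 60.6 against 0.335 and 1.13 FPKM. CXCL12, a chemokine of stromal cells, was at 64.3, 9.27 and 2.70 against 0.106 and 0.853 FPKM. CXCL16, a membrane-bound chemokine, was the higher one at 0.475 against 5.40 FPKM. NFKB1, a subunit of NF-kB itself, was within 2-fold at 23.4 against 20.4 FPKM.

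Hypoxia response genes, which HIF factors switch on when oxygen is short, were lower in SNU-398 as a block. Of 24, 20 were at least 2-fold lower and none higher, with a median of -2.64. EGLN3, the prolyl hydroxylase that feeds back on HIF, was at 45.3, 50.1 and 55.1 against 0.0507 and 0.804 FPKM. NDRG1, a stress protein often used as a hypoxia marker, was at 82.9, 60.4 and 99 against 0.973 and 1.42 FPKM. The surface carbonic anhydrase CA9 was at 21.5, 5.01 and 3.36 against 0 and 0 FPKM. HIF1A itself, whose protein rather than transcript responds to oxygen, was at 189.8, 127 and 119.7 against 57.4 and 61.1 FPKM. KDM3A, a histone demethylase, and CITED2 were within 2-fold. Oxygen and density of the cultures are not stated in the labels.

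The hypoxia response element has the core ACGTG. Beside the values of CA9 and of DDIT4, an inhibitor of mTORC1 (136 against 9.74 FPKM), the 250 bases before the start of both genes are shown as examples of lower members that hold it, with the core on either strand in capitals (RefSeq, GRCh38.p14).
CA9: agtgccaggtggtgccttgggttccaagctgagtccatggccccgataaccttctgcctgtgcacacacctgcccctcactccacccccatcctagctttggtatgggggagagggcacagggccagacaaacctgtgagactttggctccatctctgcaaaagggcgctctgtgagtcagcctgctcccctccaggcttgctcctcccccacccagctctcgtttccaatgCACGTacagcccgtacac
DDIT4: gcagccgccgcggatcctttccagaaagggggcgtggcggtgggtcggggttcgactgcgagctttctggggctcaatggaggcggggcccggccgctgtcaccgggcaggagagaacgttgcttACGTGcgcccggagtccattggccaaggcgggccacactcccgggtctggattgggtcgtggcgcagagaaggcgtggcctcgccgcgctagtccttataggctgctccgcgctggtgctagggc
The CA9 stretch is chr9:35673678-35673927 (plus strand), and the DDIT4 stretch chr10:72273674-72273923 (plus strand). In 300-base windows, 11 of 20 measured members with a promoter in the table (20 of 24) held the core, 9 of 16 of the lower members and 2 of 4 of the others. The core was in 24.9% of all 27305 genes of the table and 32.6% of those past the filter. With 4 other members, these shares could not be told apart. Of the 22 glycolysis genes with a promoter, 13 held the core, 8 of 14 of the lower and 5 of 8 of the other members.

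Glycolysis, which HIF also feeds, was lower with exceptions. Of 25 genes, 16 were at least 2-fold lower and 2 higher, with a median of -1.47. LDHB, a subunit of lactate dehydrogenase (chromosome 12, 21635342 to 21757857), was at 259, 286 and 359.6 against 0.0370 and 5.08 FPKM. The lactate exporter SLC16A3 was at 59.2 against 0.0697 FPKM. The glucose transporter SLC2A1 was at 66.4 against 2.75 FPKM. GAPDH was at 908, 668 and 861 against 312 and 290.2 FPKM. The pyruvate kinase PKM was at 610.0, 490.2 and 687 against 219 and 324 FPKM. Both enzymes were lower in each SNU-398 library than in any SNU-387 library. The higher genes were PFKFB2, at 7.14, 8.79 and 7.47 against 15.7 and 42.8 FPKM, and the muscle enolase ENO3.

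Redox and iron genes followed. Of 48 NRF2 and glutathione genes, 29 were at least 2-fold lower and 2 higher, with a median of -1.44. NQO1, the quinone reductase most used as a readout of NRF2, was at 255, 180.4 and 372 against 3.03 and 9.11 FPKM. AKR1B10, an aldo-keto reductase, was at 102, 25.8 and 49.8 against 0 and 0.357 FPKM. MGST1, a microsomal glutathione transferase, was at 88.4, 63.1 and 84.3 against 0.0629 and 0.376 FPKM. HMOX1 (haem oxygenase) was higher at 17.3, 10.1 and 12 against 37.1 and 171 FPKM. KEAP1, the NRF2 repressor, was within 2-fold at 25.4 against 29.9 FPKM. Of 20 iron handling genes, 10 were lower and 1 (HMOX1) higher. The ferritin chains parted. The light chain FTL was at 534, 384 and 579 against 2.20 and 30.3 FPKM. The heavy chain FTH1 was within 2-fold at 422, 328 and 449 against 248 and 224 FPKM. FTL has many processed pseudogenes with which it could share reads. The ferroxidase CP was at 118, 22.7 and 17.2 against 0.364 and 0.948 FPKM. The joint row of the UGT1A glucuronosyltransferases was at 116 against 0.0198 FPKM, with 24.8 and 8.12 FPKM in the SALL4A and SALL4B libraries. Among 16 cytochrome P450, UGT and sulfotransferase genes, 4 were higher and 7 lower, with CYP1B1 at 53, 68.2 and 81.6 against 2.19 and 2.07 FPKM. Of 7 metallothionein genes, 3 were lower and 1 higher. MT1E, one of a set of near-identical genes that could share reads, was at 76.8, 74.9 and 111 against 4.04 and 8.21 FPKM. MT2A was within 2-fold at 113, 135 and 230.4 against 68.8 and 54.9 FPKM.

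Mitochondrial and ribosomal genes were closer between the lines. Of 77 nuclear genes of oxidative phosphorylation, 4 were at least 2-fold higher and 15 lower, with a median of -0.41. NDUFS8, a complex I subunit, was at 151, 117 and 138 against 36.7 and 17.8 FPKM. COX7B, of complex IV, was at 285, 224 and 269 against 85.9 and 113 FPKM. ATP5D, a subunit of ATP synthase, was on the higher side at 12.4, 14.1 and 17.5 against 65.6 and 22 FPKM. Mitochondrial ribosomal proteins had 10 higher and 5 lower of 73, with a median of -0.18. Cytosolic ribosomal proteins had 3 lower and none higher of 73, with a median of -0.42. With a common total these medians became 0.05, 0.28 and 0.04, so their sign depends on the scaling. Beside 21.4% of all genes, the share of lower members was 19.5% for oxidative phosphorylation, 6.85% for mitochondrial and 4.11% for cytosolic ribosomal proteins. TCA cycle and pyruvate genes had 4 higher (11.8%) and 10 lower (29.4%) of 34, with pyruvate carboxylase (PC) at 36.5, 32.7 and 40.4 against 3.47 and 1.82 FPKM. Fatty acid oxidation genes had 3 higher and 4 lower of 28. RPL32, whose introns hold small nucleolar RNA genes, was the lowest ribosomal gene at 1279.6, 772 and 820.1 against 138 and 1517 FPKM. The small RNA share was lowest in the untreated library and highest in the knockdown library, as RPL32 was, and the part of that share in its values was not tested.

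Synthesis and growth lists had shares of higher members near or below the 23.7% of all genes. Of 39 one-carbon and nucleotide synthesis genes, 11 were at least 2-fold higher (28.2%) and 3 lower (7.69%). Besides MTHFD2, CAD, which starts pyrimidine synthesis, was at 7.21, 12.1 and 6.42 against 41.3 and 32.9 FPKM. CBS, which commits homocysteine to cysteine, was at 3.28, 8.57 and 19.1 against 67.2 and 73.2 FPKM. NT5E (CD73), which makes adenosine outside the cell, was lower at 98.4, 132 and 49.1 against 1.30 and 2.99 FPKM. FASN, the fatty acid synthase, was at 13.6, 16.9 and 17 against 63.3 and 41.4 FPKM, though its list had 4 higher and 9 lower of 38. Of 55 proliferation genes, 9 were higher (16.4%) and 2 lower (3.64%), with a median of 0.10. MKI67 was at 64.5, 83 and 80.4 against 235 and 122 FPKM. CDT1, the replication licensing factor, was at 3.39 against 26.2 FPKM. Cyclin B1 (CCNB1) was at 185 against 61.7 FPKM. Translation factors had 6 higher and 3 lower of 39, with EEF1A2, the elongation factor of muscle and neurons, at 3.09, 5.60 and 35.4 against 65.8 and 40.5 FPKM. The list of unfolded protein and integrated stress response genes had 5 higher and 10 lower of 26. The asparagine synthetase ASNS was at 30.3 against 86.3 FPKM. CHAC1, which degrades glutathione, was at 1.15 against 9.66 FPKM. The chaperone HSP90B1 was on the other side at 709 against 232 FPKM.

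Cell cycle inhibitors differed gene by gene, and one stretch of chromosome 9 was at or near 0 in SNU-387. CDKN2A, which encodes p16 and ARF, was at 0, 0 and 0 against 18 and 8.09 FPKM. Its neighbour CDKN2B (p15) was at 0, 0.0320 and 0 against 21.9 and 53.8 FPKM. MTAP, the enzyme that salvages methylthioadenosine, was at 0.0490, 0 and 0 against 21.7 and 12.8 FPKM. These belong to a run of 8 neighbouring genes past the filter (chromosome 9, 21329671 to 24545946), which was picked out after its values were seen. The run holds KLHL9, MTAP, CDKN2A, CDKN2B-AS1, CDKN2B, DMRTA1, ELAVL2 and IZUMO3. Each of the 8 was at most 0.0713 FPKM in all 3 SNU-387 libraries. At the far end of the run, SNU-398 itself varied: IZUMO3 was at 4.12 FPKM untreated and 0 with knockdown, and ELAVL2 at 5.66 and 1.25 FPKM. The nearest measured genes outside, FOCAD and TUSC1, were detected in SNU-387. FOCAD, on one side, was at 11.7, 11.6 and 7.73 against 18.4 and 29.5 FPKM. TUSC1, on the other, was at 1.74, 3.93 and 2.89 against 2.02 and 1.84 FPKM. Of 23 cell cycle inhibitor and G1 genes, 8 were at least 2-fold higher and 7 lower. CDKN1A (p21) was lower in SNU-398, at 15.4 against 3.15 FPKM. CDKN2C (p18) was lower, at 60.6 against 17.1 FPKM. Cyclin D1 (CCND1), the counterpart of CCND2, was at 202, 286 and 258 against 73.8 and 102 FPKM.

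In the list of p53 targets and death genes, a set of 3 caspases had the lowest ratios. Of 37, 6 were at least 2-fold higher (16.2%, beside 23.7% of all genes) and 11 lower (29.7%, beside 21.4%). The inflammatory caspase CASP4 was at 79.9, 45.5 and 65.8 against 0.182 and 0.331 FPKM. CASP1, which matures interleukin-1, was at 23.4, 16.1 and 15.5 against 0 and 0.126 FPKM. CASP8, the initiator below death receptors, was at 47.7, 39.8 and 35.5 against 0.417 and 1.05 FPKM. These 3 were at 1.05 FPKM or less in SNU-398. CASP10 was also lower, and CASP9 was within 2-fold. BAX, the pore former of the mitochondrial outer membrane, was at 10.1, 9.83 and 8.53 against 0.150 and 2.61 FPKM. BAX lies near FTL and GYS1 on chromosome 19, a set noticed after the values were seen. GYS1 (glycogen synthase) was at 10.0, 10.4 and 9.12 against 2.31 and 2.86 FPKM. RUVBL2 beyond it was at 70.6, 77.4 and 81.3 against 76.1 and 59.7 FPKM. The death receptor FAS was higher at 2.97, 5.71 and 2.11 against 13 and 14 FPKM. SLFN11, which sensitises cells to DNA damage, was at 0.337, 0.0735 and 0.0649 against 18.4 and 1.17 FPKM. SLFN11 was the gene of this list with the highest control ratio, and its knockdown value was far lower than the untreated one.

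Growth factor signalling differed in its parts. Of 27 receptor tyrosine kinases, 7 were at least 2-fold higher and 15 lower. MET, the hepatocyte growth factor receptor, was at 69, 70.2 and 63.8 against 0.114 and 1.12 FPKM. EPHB2, a receptor of ephrins, was at 38.5, 48 and 57.2 against 0.858 and 1.73 FPKM. FGFR4, the hepatocyte receptor for FGF19, was higher at 0.146, 0.302 and 0.153 against 9.46 and 2.14 FPKM. IGF1R, the receptor of insulin-like growth factors, was higher at 3.38, 4.62 and 4.78 against 16.7 and 10.3 FPKM. Of 14 EGFR and ERBB genes, 2 were higher and 7 lower. In that family, the ligand TGFA was at 20.8 against 0.167 FPKM. The receptor ERBB4 was on the other side at 0.186 against 9.62 FPKM. ERBB2 was within 2-fold at 8.10 against 8.97 FPKM. Of 31 MAPK feedback and AP-1 genes, 12 were higher and 6 lower. DUSP6, the phosphatase that feeds back on ERK, was at 14.5, 7.30 and 1.71 against 70.0 and 105 FPKM. EGR1, an immediate early factor, was at 2.76, 1.38 and 15.6 against 52.8 and 80.2 FPKM. JUN was lower at 47.8, 49.8 and 51.9 against 1.38 and 17.8 FPKM. MYC overlapped at 31.8, 50.1 and 68.9 against 104 and 43.7 FPKM.

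WNT targets and components were divided by gene. Of 38, 14 were at least 2-fold higher (36.8%, beside 23.7% of all genes) and 8 lower (21.1%, near the 21.4% of all genes). AXIN2, a scaffold of the beta-catenin destruction complex and itself a direct target of beta-catenin (chromosome 17, 65528563 to 65561647), was at 0.572, 1.53 and 0.591 against 114 and 136 FPKM. LEF1, a DNA-binding partner of beta-catenin, was at 0.374, 0.380 and 0.0315 against 59.4 and 33.7 FPKM. TCF7, another such partner, was at 1.06, 1.53 and 2.31 against 30.7 and 10.3 FPKM. The SNU-398 libraries lay above all SNU-387 libraries at these 3 genes. GLUL (glutamine synthetase), the target that marks beta-catenin activity in liver, was lower at 76.4, 103 and 109 against 16 and 4.53 FPKM. LGR4, an R-spondin receptor, was lower at 9.98 against 1.78 FPKM. Beta-catenin itself (CTNNB1) was at 112, 120.4 and 122 against 60.3 and 89.8 FPKM.

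The Notch, TGF-beta and YAP lists completed the signalling groups. Of 18 Notch genes, 11 were at least 2-fold higher and 2 lower. HEY2, a Notch target, was at 0.246, 0.689 and 1.33 against 25.7 and 8.56 FPKM. The ligand JAG2 was at 1.10, 1.60 and 3.19 against 14.2 and 13.1 FPKM. The ligand JAG1 was on the other side at 44.3, 40.4 and 14.8 against 1.01 and 1.91 FPKM. With genes at 1 FPKM or more in both libraries only, the Notch median of 1.31 took the other sign (-0.25). Of 42 TGF-beta, activin and BMP genes, 7 were higher (16.7%, beside 23.7% of all genes) and 14 lower (33.3%, beside 21.4%). The ligand BMP7 was at 0.120, 0.0102 and 0 against 25.4 and 9.30 FPKM. The BMP antagonist GREM1 was at 108, 42.7 and 37.7 against 0.830 and 0.422 FPKM. The receptor TGFBR2 was at 73.8, 40.5 and 18.8 against 6.14 and 0.607 FPKM. Of 24 YAP and TEAD genes, 3 were higher (12.5%) and 9 lower (37.5%), with the secreted target CYR61 at 43.9 against 14.2 FPKM. The target ANKRD1 had the highest ratio of the list, at 0.935 against 26 FPKM, but overlapped between the lines over all libraries. YAP1 itself was within 2-fold at 63.4 against 48.8 FPKM. In the list of axon guidance genes, 10 of 39 were higher (25.6%, near the share of all genes) and 13 lower (33.3%). ROBO2, a slit receptor, was at 0.219, 0.0325 and 0.0134 against 49.5 and 52.7 FPKM. NRP1, a semaphorin and VEGF receptor, was at 99.2, 55.3 and 77.4 against 0.212 and 0.522 FPKM.

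**Figure D4:**
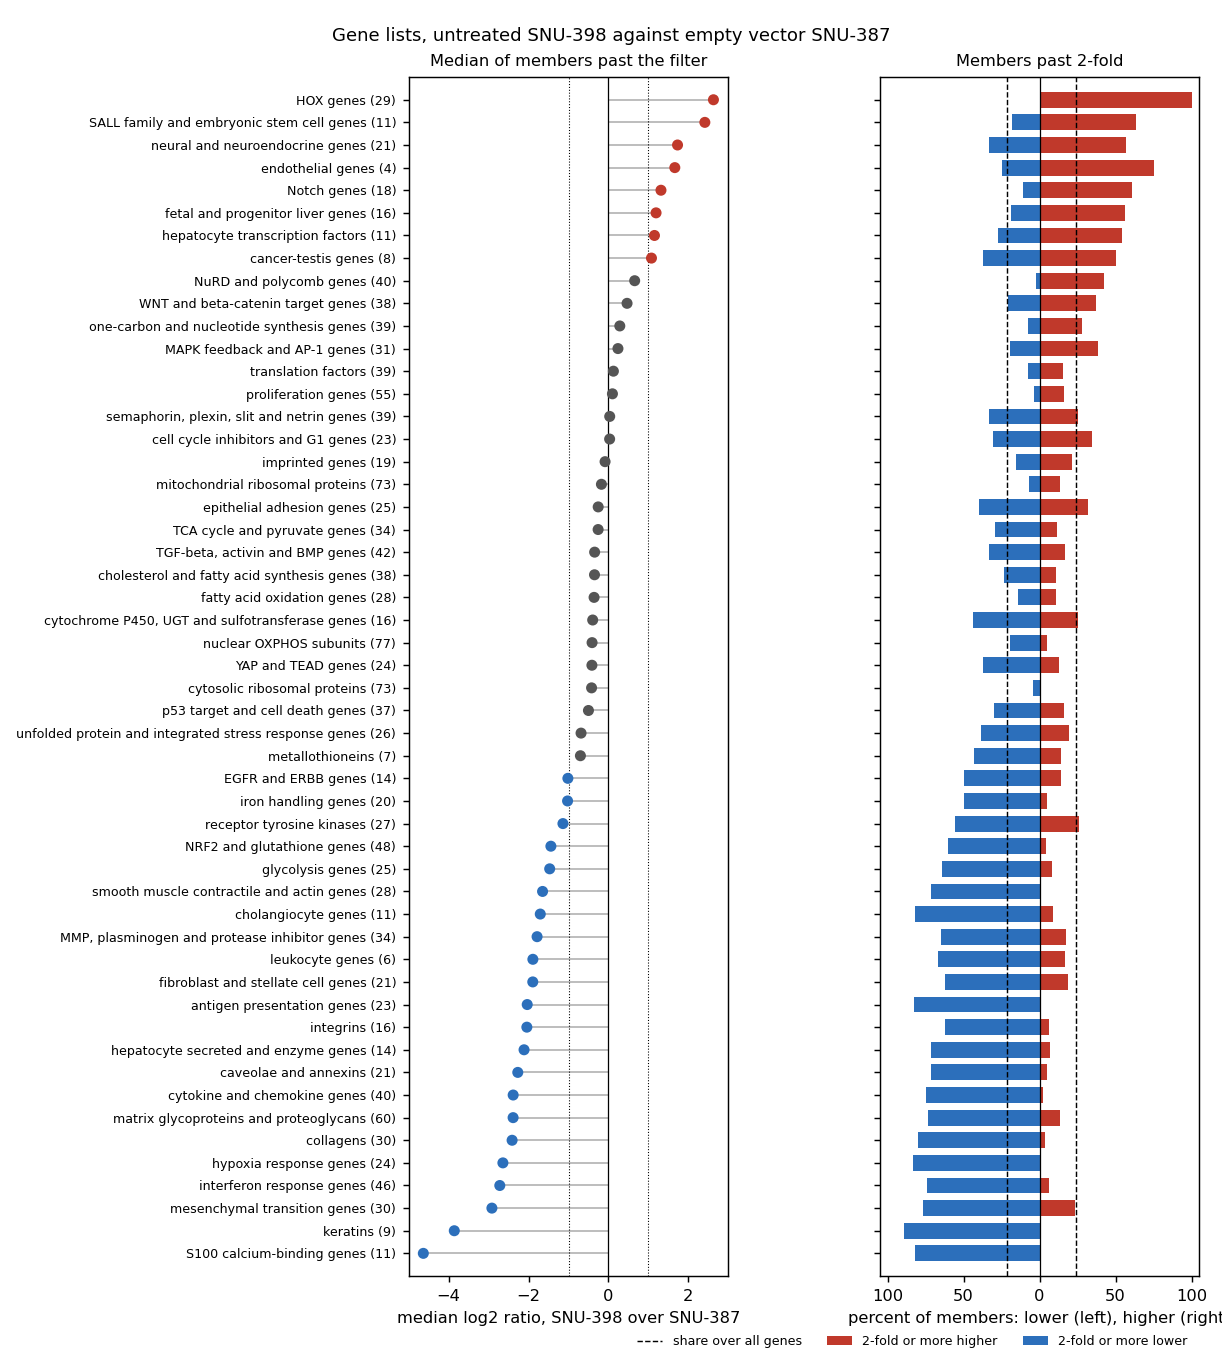
Left, median log2 ratio of untreated SNU-398 over empty vector SNU-387 for each of 52 gene lists, with the number of members past the filter in brackets and dotted lines at 2-fold. Right, percent of those members at least 2-fold higher (red) or lower (blue), with dashed lines at the shares over all genes (23.7% and 21.4%); HOX genes lie at the top (29 of 29 higher) and the S100 and keratin lists at the bottom.

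The ratios also differed by chromosome. Positions were at hand for 13468 of the 13996 genes (GENCODE 29 and RefSeq, GRCh38). Median log2 ratios were highest on chromosomes 14 (0.75), 15 (0.69) and 19 (0.67) and lowest on X (-0.66), 3 (-0.52) and 6 (-0.51). With values scaled to a common total, 8 chromosome medians changed sign, among them those of chromosomes 1 (-0.21 to 0.23), 4 (-0.25 to 0.14) and 5 (-0.29 to 0.13), and chromosome 3 came to -0.10. As deposited, on chromosome 14, 182 of 461 genes were at least 2-fold higher (39.5%) and 44 lower (9.54%). On chromosome 3, 99 of 770 were higher (12.9%) and 263 lower (34.2%). On chromosome 19, zinc finger genes named ZNF and a number were 71 higher and 17 lower of 209, and genes whose symbol does not begin with ZNF were 275 higher and 55 lower of 699 (ZNF symbols with letters after the number, such as ZNF724P, enter neither count), so the direction was not limited to zinc finger genes. ZNF genes outside chromosome 19 had 65 higher and 15 lower of 202.

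**Figure D5:**
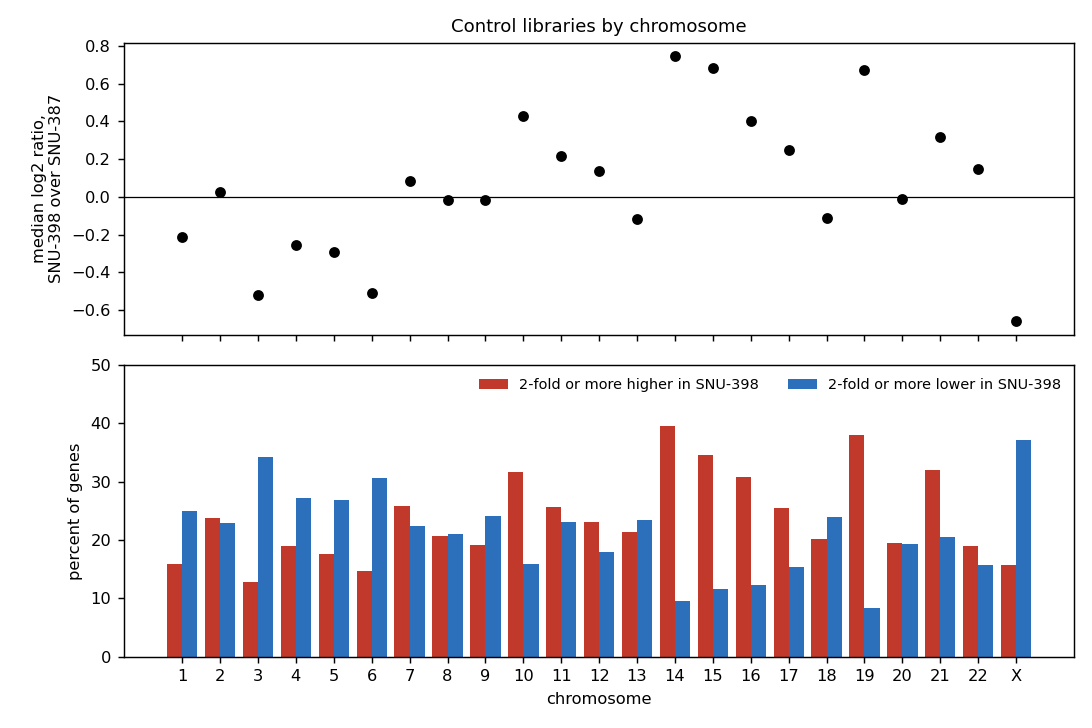
Median log2 ratio of untreated SNU-398 over empty vector SNU-387 (top) and percent of genes at least 2-fold higher (red) or lower (blue) in SNU-398 (bottom) for each chromosome. Chromosomes 14, 15 and 19 have the highest medians (0.75, 0.69 and 0.67), and X, 3 and 6 the lowest (-0.66, -0.52 and -0.51).

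Neighbouring genes called the same way formed runs. Genes under the filter that lie between them were skipped. A gene that reached 1 FPKM only in SNU-398 is bound to lie on the higher side. The HOXC genes with a row of their own were at 0.0363 FPKM or less with empty vector. Runs of such genes are therefore a description of what SNU-398 transcribes there. The longest was 14 higher genes on chromosome 19 (22052452 to 27793940), with ratios of 1.22 to 3.47: ZNF257, ZNF98, ZNF492, ZNF99, ZNF730, ZNF724P, IPO5P1, ZNF91, ZNF675, ZNF681, RPSAP58, ZNF726, ZNF254 and LINC00662. These zinc finger genes are similar in sequence and could share reads. Runs of 11 higher genes were found 3 times: HOXC13-AS, HOXC13, HOXC12, HOTAIR, HOXC11, HOXC-AS3, HOXC10, HOXC-AS2, HOXC9, HOXC-AS1 and HOXC8 on chromosome 12 (53935328 to 54012362), ZNF85 to ZNF43 on chromosome 19 (20923222 to 21852125), and SCAF4 to IFNAR2 on chromosome 21 (31671033 to 33265675). The labels do not say whether reads were counted by strand, so the HOXC antisense genes cannot be told apart from their partners.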

How the data were processed

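Total RNA was sequenced after removal of ribosomal RNA, 1 library per group. The authors deposited 1 table of FPKM values per library. TopHat2, SAMtools, Cufflinks and Cuffdiff and the builds GRCh38 and hg38 are named, without versions, per the submitters' processing notes. The annotation, strand use, treatment of reads that map to several genes and any joint normalisation are not named there or in the labels.

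From 26032 rows, 17 named only by a dash were dropped and rows that share a symbol (450 symbols) were summed, which gave 24544 symbols. Genes at 1 FPKM or more in either control library were compared by log2 ratio after adding 1 FPKM, and called at 2-fold. There was 1 library a side, so no test was made and no p-value is given. The spacing of low values gave an estimate of depth.

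Named genes were the 15 highest and 15 lowest ratios at 5 FPKM or more, without small RNAs, joint symbols and sex-linked marker genes, and per list all members for up to 12 genes or else the 5 highest, the 5 lowest and the 3 most abundant. SALL4, its paralogs, cell type markers and the 3 longest runs were added, with GENCODE 29 and RefSeq positions. PTPN18, ANP32B, QDPR, DDIT4, HOXA7, HOXB7, HOXD10, FOCAD, TUSC1, GYS1 and RUVBL2 fall outside this rule and were picked after their values were seen. The members and lists were chosen with earlier results of these data known. One of the longest runs and some list members are not reported here. Symbols that join several genes (333) were kept as rows of their own and never assigned to one gene.

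Promoter sequences came from RefSeq (GRCh38.p14). The planned check of promoter base composition is void, because 10668 of 13996 genes (76.2%) had a promoter in the table. A set of 12 alternatives (pseudocounts, filters, scalings, row handling) was run. Calculations used matplotlib 3.10.9, scipy 1.17.1, pandas 2.3.3 and numpy 2.4.6 under Python 3.11.15, and the counting was tested on simulated data.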

Additional observations from a re-analysis of the deposited data

How the results depend on the processing

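No paired analysis was possible because each group has 1 library and the labels give no replicate numbers. All values rest on single libraries, and at the estimated depths a gene near 1 FPKM rests on few fragments. Of 84 counts under 12 alternatives, 71 stayed within 1.5 times. With a pseudocount of 5 FPKM, 1582 genes were higher and 1955 lower, of which 838 and 1264 were called the same way in the pair of knockdown and SALL4A, and 2 lists had a median at least 2-fold higher. With genes at 1 FPKM or more in both libraries, the counts were 1714 higher and 1797 lower, 843 and 1112 of them called again, and 3 lists higher. With a minimum of 5 FPKM in either library, 1285 higher genes were called again. With no filter, 14 lists were at least 2-fold lower and 1 higher. The stricter filters hold fewer genes by construction, and a larger pseudocount shrinks every ratio. Of 623 values of list medians, 542 moved by no more than 0.58 on the log2 scale (1.5 times) and 78 moved further. The other 3 changed sign, which was counted only for lists with a median past 2-fold. Smaller medians changed sign too, such as that of the axon guidance list, which kept its sign under 8 of 12 alternatives. Of 30 lists with a median past 2-fold, 27 kept their sign under all alternatives. The median turned for endothelial genes (-0.14) and cancer-testis genes (-0.14) with no filter, and for Notch genes (-0.25) with genes at 1 FPKM or more in both libraries. Scaling to a common upper quartile moved the median gene to 0.18, with 57.1% of called genes on the higher side, and a pseudocount of 5 FPKM gave 44.7%. All 276 values of chromosome medians moved by less than 1.5 times, but 10 of 23 chromosomes changed sign under some alternative, 8 of them with a common total. Of 16549 values of 1432 single genes, 15615 moved by less than 1.5 times, 934 moved further, all with another pseudocount, and 0 of those past 2-fold changed sign.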
